A study of Homo sapiens with 3 samples.

Results

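The genes described here are 10 genes of Nodal and activin signaling, of 58051 genes listed in the deposited counts. They were chosen by name, as a list of pathway genes, with earlier results of these data known. All 10 were found by matching Ensembl identifiers to GENCODE release 44. The counts come from H9, an established human embryonic stem cell line, in 1 group of 3 replicates. The cells were wild type and untreated, and grew in Essential 8 Flex medium on vitronectin. The labels do not say whether the replicates were separate cultures, so the spread between them may be technical. With 1 condition there is no comparison of groups. The study used expression to class genes when it compared DNA breaks at replication origins near start and splice sites, and this pathway was not its subject.

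Nodal and activin are secreted ligands of the TGF-β superfamily that bind a pair of type II and type I receptor kinases at the cell surface. NODAL and GDF3 also need a coreceptor of the EGF-CFC family, such as CRIPTO, the product of TDGF1, whereas activin does not. The receptors phosphorylate SMAD2 and SMAD3, which enter the nucleus with SMAD4 and act on genes together with DNA-binding partners such as FOXH1. LEFTY1 and LEFTY2 are secreted inhibitors and are themselves targets of the pathway. Primed human embryonic stem cells, the state in which H9 is usually grown, depend on this pathway to stay pluripotent, and stronger signaling leads toward mesendoderm.

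Reads of 3 members, LEFTY1, LEFTY2 and TDGF1, could be hard to place, because near-identical copies of their coding sequence exist, and few bases tell the copies apart. LEFTY1 and LEFTY2 both lie on the minus strand of chromosome 1, and their coding sequences of 1098 bases were 97.2% identical, with 31 differences and an identical run of 300 bases.

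TDGF1 has a copy on the X chromosome, TDGF1P3, which GENCODE lists as protein-coding and which has the form of a processed copy. Their coding sequences of 564 bases were 98.8% identical, with 7 differences and an identical run of 257 bases. The 120 coding bases with the most differences are shown, and they hold 3 of the differences, in capitals. Reads that cover a capital can be told apart, and reads that lie between the capitals cannot. They were read from GRCh38 at chr3:46579237-46579356 for TDGF1 and at chrX:110521223-110521342 for TDGF1P3, both on the plus strand.
TDGF1: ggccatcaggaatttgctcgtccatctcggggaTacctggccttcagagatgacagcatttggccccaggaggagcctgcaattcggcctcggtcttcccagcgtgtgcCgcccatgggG
TDGF1P3: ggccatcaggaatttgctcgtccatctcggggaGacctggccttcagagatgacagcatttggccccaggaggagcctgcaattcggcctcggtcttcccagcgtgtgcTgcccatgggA

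Totals of 8655155 to 12024802 reads were counted on genes per replicate, and between 0.130% and 0.136% of them lay on the 10 members. Levels are given as TPM, a gene's reads per exon length relative to the sum of such values over all matched genes of the library, so that levels of different genes can be set side by side. The classes follow the definition of the study, which calls genes below 0.01 TPM nonexpressed and divides the others into 3 quantiles, here over protein-coding genes. By these values the medium class began at 3.35 TPM and the high class at 26.96 TPM. The stem cell identity of the libraries was checked on 6 markers, POU5F1, NANOG, SOX2, LIN28A, DPPA4 and PODXL, which summed to between 5429 and 5534 TPM per replicate. LIN28A gave the largest part of this sum, with a mean of 2576 TPM, and NANOG the smallest, with 275 TPM. Of the markers of other cell types, 7 mesendoderm genes summed to between 40.2 and 57.1 TPM, 2 neuroectoderm genes to between 3.67 and 5.69 TPM, 3 trophectoderm and amnion genes to between 1.75 and 2.31 TPM with CDX2 at 0 reads, and 4 fibroblast genes to between 16.6 and 19.2 TPM, most of it COL1A1, whose mean of 14.6 TPM was in the medium class.

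All 10 members were expressed in every replicate, from 43 reads upward. Of them, 8 were in the high class and 2, SMAD2 and LEFTY2, in the medium class, where the high class holds 28.8% of all protein-coding genes. The median of the 10 mean levels was 63.1 TPM, beside 11.7 TPM over expressed protein-coding genes. Because the members were chosen with earlier results of these data known, these comparisons describe the list and test nothing. Each member had the same class in all 3 replicates when the boundaries of the mean were applied. The count of 8 was 7 with the median of the replicates and 6 where only genes at 1 TPM or more were divided into classes.

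**Figure D1:**
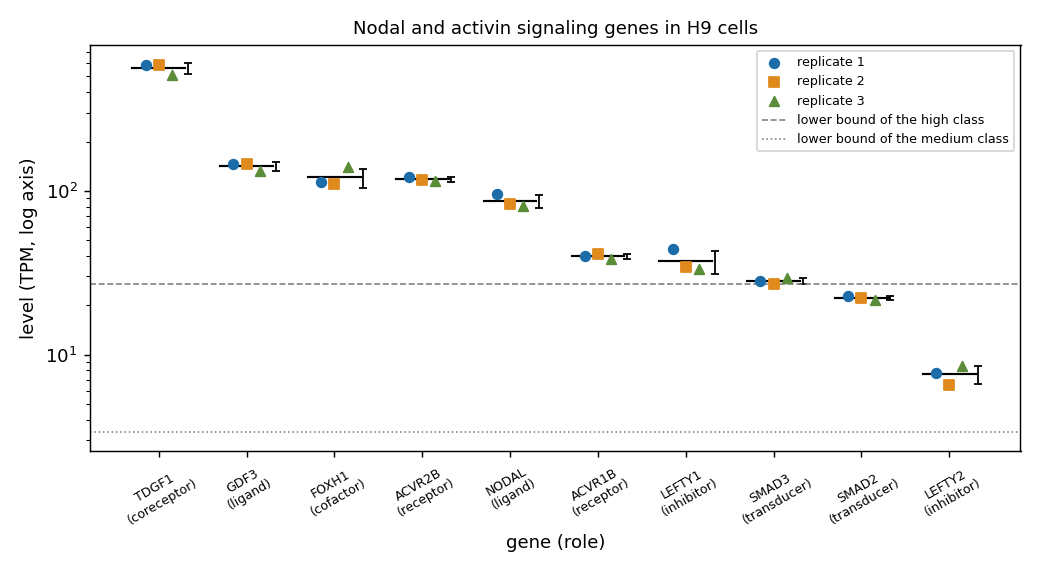
TPM of the 10 members in each replicate on a log axis, in order of their mean; horizontal lines are means, bars are SD (n = 3), and the dashed and dotted lines are the lower bounds of the high and medium classes. TDGF1 stands above all others at 559 TPM, and LEFTY2, at 7.57 TPM, below all others.

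Both ligands were in the high class. NODAL (ENSG00000156574, chromosome 10, 70431936 to 70447951, minus strand) had 520, 526 and 372 reads in replicates 1, 2 and 3, or 95.8, 83.3 and 80.3 TPM. Its mean level was 86.5 ± 8.18 TPM (SD, n = 3), with replicate 1 above the other replicates. Exons of ENSG00000280401, an unclassified transcript on the opposite strand, cover 33.5% of the exon length of NODAL. That gene had 229, 211 and 158 reads, and since the use of strand in the counting is not given in the sources used here, reads of both cannot be told apart. Divided by the 1388 exon bases that NODAL shares with no gene on either strand, a choice made after seeing the data, its mean was 129.97 TPM, above ACVR2B at 117 TPM, and its log2 ratio to GDF3 was -0.12. All reads of NODAL were kept, so this value is too high if reads from the shared bases were counted.

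GDF3 (ENSG00000184344, chromosome 12, 7689784 to 7695775, minus strand), which signals through the same receptors, had 471, 545 and 361 reads and 146.4, 145.7 and 131.6 TPM. Its mean of 141 ± 8.35 TPM (SD, n = 3) was above NODAL in every replicate. No stretch of 50 bases in GDF3 was shared with a transcript of another gene, and the same held for ACVR1B alone among the other members. In reads, which do not take length into account, both ligands were nearly level, and the exons of GDF3 span 1236 bases and those of NODAL 2086. The ratio of NODAL to GDF3 was -0.71 ± 0.10 on the log2 scale of TPM (SD, n = 3).

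TDGF1 (ENSG00000241186, chromosome 3, 46574534 to 46582457, plus strand), which encodes the coreceptor CRIPTO, had the highest level of the 10 members. It had 3786, 4398 and 2815 reads, or 584.3, 583.9 and 509.6 TPM, with a mean of 559 ± 43.0 TPM (SD, n = 3). Replicate 3 lay below the other replicates, which were close to each other. This level was above that of 99.0% of expressed protein-coding genes, and TDGF1 exceeded NODAL by 2.69 ± 0.10 on the log2 scale (SD, n = 3), which is 6.47-fold. Its copy TDGF1P3, described above by its sequence, had 261, 313 and 200 reads and 46.1 ± 3.27 TPM (SD, n = 3). TDGF1 exceeded TDGF1P3 by 3.60 ± 0.03 on the log2 scale (SD, n = 3), or 12.1-fold. Of the stretches of 50 bases in TDGF1 transcripts, 30.4% occur in transcripts of other genes, nearly all of them in TDGF1P3, and how the counting placed such reads is not given in the sources used here. The 6 other annotated pseudogenes of TDGF1, TDGF1P1, TDGF1P2, TDGF1P4, TDGF1P5, TDGF1P6 and TDGF1P7, had from 0 to 2 reads per replicate.

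The inhibitors had lower levels than the ligands. LEFTY1 (ENSG00000243709, chromosome 1, 225886282 to 225911382, minus strand) had 217, 195 and 139 reads, or 44.1, 34.1 and 33.1 TPM, with a mean of 37.1 ± 6.07 TPM (SD, n = 3). Replicate 1 stood above the other replicates, as for NODAL. LEFTY2 (ENSG00000143768, chromosome 1, 225936598 to 225941383, minus strand) had 46, 45 and 43 reads, or 7.73, 6.505 and 8.47 TPM, with a mean of 7.57 ± 0.995 TPM (SD, n = 3). The 2 genes did not overlap in level, and LEFTY1 exceeded LEFTY2 by 2.29 ± 0.29 on the log2 scale (SD, n = 3), or 4.89-fold with a range of 3.91 to 5.70. The summed level of both inhibitors was below that of NODAL in all 3 replicates, by -0.96 ± 0.08 on the log2 scale (SD, n = 3).

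Stretches of 50 bases shared between both inhibitors make up 26.8% of those in LEFTY1 and 21.6% of those in LEFTY2, so reads from these stretches could be assigned to either gene or to none, and how the counting placed them is not given in the sources used here.

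The type II receptor gene ACVR2B had a higher level than the type I receptor gene ACVR1B. ACVR2B (ENSG00000114739, chromosome 3, 38453890 to 38493142, plus strand) had 4970, 5526 and 3978 reads, the most of the 10 members, or 121.6, 116.3 and 114.1 TPM. Its mean was 117 ± 3.83 TPM (SD, n = 3). ACVR1B (ENSG00000135503, chromosome 12, 51951699 to 51997078, plus strand), which encodes the receptor kinase ALK4 that phosphorylates SMAD2 and SMAD3, had 589, 704 and 479 reads, or 40.0, 41.1 and 38.1 TPM. Its mean was 39.7 ± 1.501 TPM (SD, n = 3). The ratio of ACVR1B to ACVR2B was -1.56 ± 0.05 on the log2 scale (SD, n = 3), and the replicates of both genes were close together. The other type II receptor gene of activin, ACVR2A, was lower than ACVR2B by 2.58 ± 0.02 on the log2 scale (SD, n = 3), at 19.7 ± 0.397 TPM. ACVR1C, the gene of the type I receptor ALK7, had 13, 15 and 12 reads and a mean of 0.565 TPM. TGFBR1, the type I receptor of TGF-β, was above ACVR1B, at 78.5 ± 2.58 TPM (SD, n = 3).

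SMAD2 and SMAD3, the transducers, were close in level and their order depends on the gene length. SMAD3 (ENSG00000166949, chromosome 15, 67063763 to 67195173, plus strand) had 733, 822 and 654 reads, or 28.1, 27.1 and 29.4 TPM, with a mean of 28.2 ± 1.15 TPM (SD, n = 3). SMAD2 (ENSG00000175387, chromosome 18, 47808957 to 47931146, minus strand) had 2163, 2445 and 1745 reads, or 22.8, 22.2 and 21.6 TPM, with a mean of 22.2 ± 0.614 TPM (SD, n = 3). Per length, SMAD2 was below SMAD3 in every replicate, by -0.35 ± 0.09 on the log2 scale (SD, n = 3).

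In the annotation used here the exons of SMAD2 cover 36426 bases, and its 2 transcripts with a consensus coding sequence are 12075 and 34626 bases long. The annotation with which the reads were counted is not given in the sources used here. With canonical transcripts as gene lengths, and the 12075-base transcript for SMAD2, a choice made after seeing the data, SMAD2 had 40.4 TPM and SMAD3 26.4 TPM, and SMAD2 was above SMAD3 by 0.615 on the log2 scale. The order of both transducers thus turns with the transcript taken for SMAD2. SMAD4, which joins both in the nuclear complex, had 26.2 ± 1.75 TPM (SD, n = 3), a mean between those of SMAD2 and SMAD3 by the union of exons. Its exons cover 19606 bases and its canonical transcript 8772, so this place may depend on the length too.

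FOXH1 (ENSG00000160973, chromosome 8, 144473412 to 144475849, minus strand), the DNA-binding partner of the SMAD complex, had 593, 670 and 623 reads, or 112.9, 109.8 and 139.2 TPM. Its mean was 121 ± 16.1 TPM (SD, n = 3), and replicate 3 stood above the other replicates. FOXH1 exceeded SMAD2 by 2.43 ± 0.22 on the log2 scale of TPM (SD, n = 3), and by 0.84 with the shorter SMAD2 transcript. Exons of KIFC2, a kinesin gene on the opposite strand, cover 39.2% of the exon length of FOXH1. KIFC2 had 311, 401 and 348 reads, and without knowledge of strand, reads of both genes cannot be told apart. Divided by the 1226 exon bases that FOXH1 shares with no gene on either strand, a choice made after seeing the data, its mean was 198 TPM. All reads of FOXH1 were kept here too, so this value is too high if reads from the shared bases were counted.

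Ordered by mean TPM, the members ran from TDGF1 over GDF3, FOXH1, ACVR2B, NODAL, ACVR1B, LEFTY1, SMAD3 and SMAD2 to LEFTY2. For 6 of the 9 pairs of neighbours in this order, all 3 replicates of the higher gene lay above all 3 of the lower. The exceptions were GDF3 and FOXH1, FOXH1 and ACVR2B, and ACVR1B and LEFTY1, whose log2 ratios of 0.23 ± 0.27, 0.03 ± 0.22 and 0.11 ± 0.22 were no larger than their SD (n = 3). These 3 pairs thus did not differ beyond the spread between replicates. The widest step was from TDGF1 to GDF3, at 3.96-fold, followed by that from SMAD2 to LEFTY2, at 2.95-fold. With 3 replicates, an exact sign-flip permutation test of such a ratio cannot give a two-sided p below 0.25, so no test was made.

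**Figure D2:**
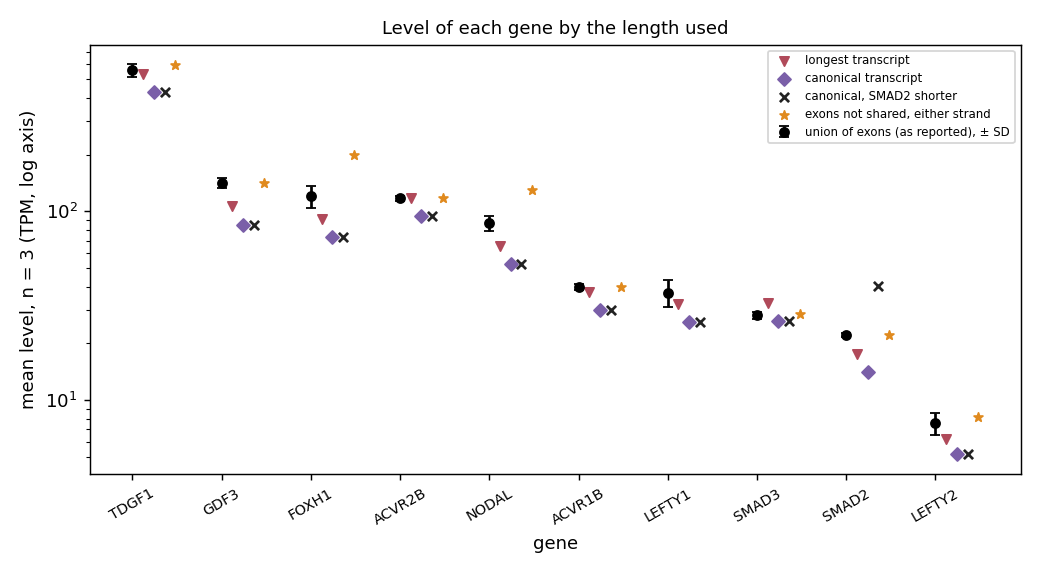
Mean TPM (n = 3, log axis) of the 10 members under the gene length used in the text, with SD bars, and under 4 other lengths, of which the one without shared exon bases is not drawn for LEFTY1. FOXH1 rises from 121 to 198 TPM where exon bases shared with other genes on either strand are left out of its length while all its reads are kept. SMAD2 passes SMAD3 only with its shorter transcript.

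The plot of levels by gene length shows which of these values rest on the annotation. All 10 levels were lower with the Ensembl canonical transcript as length, by a factor between 0.603 and 0.935. The median over 9373 protein-coding genes with at least 100 reads in each replicate also shifted, by -0.19 to -0.18 on the log2 scale. With that length ACVR2B at 94.4 TPM lay above GDF3 at 85.2 TPM and FOXH1 at 72.8 TPM. With the canonical transcript 6 members were in the high class, with the longest transcript 8, and with canonical transcripts and the shorter one for SMAD2 7. TDGF1 was highest and LEFTY2 lowest under these 3 lengths. With exon bases shared on either strand left out of the length and all reads kept, NODAL lay above ACVR2B and FOXH1 above GDF3. The order including LEFTY1 is not given for that length.

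The replicates differed most for LEFTY1, FOXH1 and LEFTY2. The coefficient of variation of TPM over the replicates was 16.4% for LEFTY1, 13.4% for FOXH1 and 13.1% for LEFTY2, and between 2.76% and 9.45% for the others, beside a median of 5.56% over 9373 protein-coding genes with at least 100 reads in each replicate. Counting error alone would give 14.96% for LEFTY2 with its few reads, which is more than was seen. For LEFTY1 it would give 7.38%, for FOXH1 3.99%, for NODAL 4.60%, for ACVR2B 1.44% and for TDGF1 1.65%. These 5 genes varied by more than that, by factors from 2.06 for NODAL to 4.66 for TDGF1, where the median of the same protein-coding genes was 1.34. At the same coefficient of variation this factor rises with the number of reads, so it is not a measure of unusual spread. For ACVR2B, with the most reads, the coefficient of variation was 3.27%, below the median of 5.56%. ACVR1B, SMAD3, SMAD2 and GDF3 stayed near counting error, at factors from 0.918 to 1.27.

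**Figure D3:**
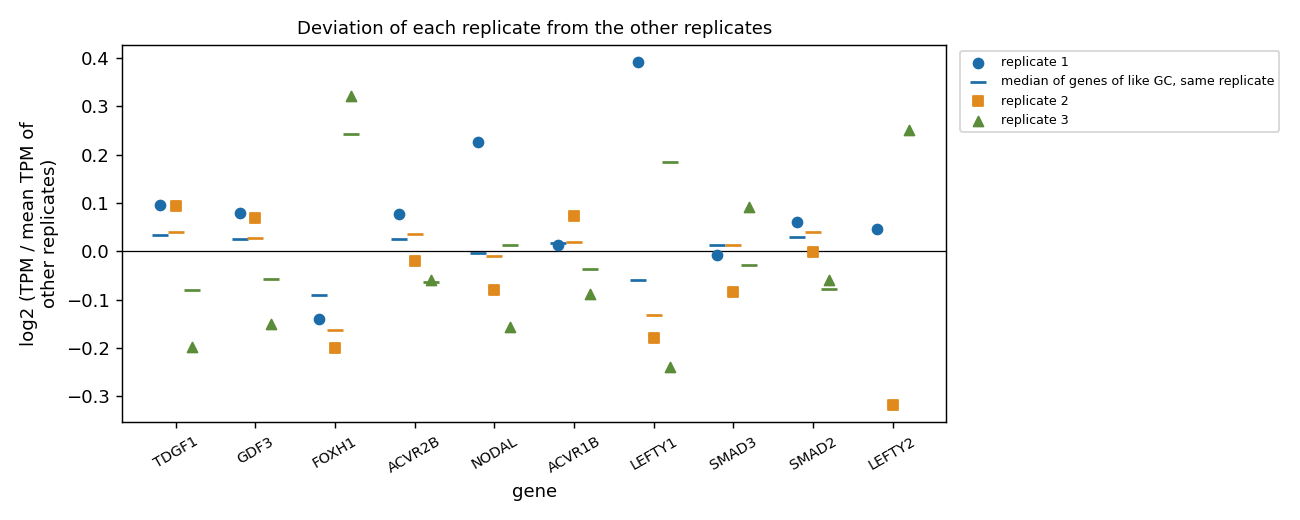
Log2 of the TPM of each replicate over the mean TPM of the other replicates, for each member (points), with the median of protein-coding genes of like exon GC content in the same replicate (dashes; none for LEFTY2, with under 100 reads). FOXH1 deviates upward in replicate 3, as do its GC neighbours, whereas LEFTY1 deviates downward there and its neighbours upward.

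Replicate 3 differs from the others with the GC content of genes, so each member was set beside protein-coding genes whose exon GC content lay within 2 percentage points of its own. For FOXH1, with 64.4% GC, replicate 3 was 0.32 above the mean of the others on the log2 scale, and the median of 399 such genes was 0.24 above. For LEFTY1, with 62.1% GC, replicate 3 was -0.24 from the others while the median of 676 such genes was 0.18. NODAL, with 54.9% GC, had -0.16 where the median was 0.01. TDGF1, with 44.1% GC, had -0.20 where the median was -0.08. Over the 9373 protein-coding genes, the median size of the deviation of replicate 3 was 0.104, and whether GC content bears on the values of single members was not tested.

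NODAL, LEFTY1, GDF3, TDGF1, ACVR2B and SMAD2 were highest in replicate 1, and LEFTY2, ACVR1B, SMAD3 and FOXH1 were not. Replicates 1 and 2 were nearly level for GDF3, at 146.4 and 145.7 TPM, and for TDGF1, at 584.3 and 583.9 TPM. For GDF3, TDGF1, ACVR2B and SMAD2, the median of genes of like GC content in replicate 3 was also low, between -0.08 and -0.06. How many of all genes were highest in replicate 1 was not counted, so no weight is given to this list. The summed level of mesendoderm markers was also highest in replicate 1, and a link between this sum and the members was not tested. The sum over 7 of them, GSC, EOMES, MIXL1, TBXT, SOX17, FOXA2 and GATA6, was 57.1 TPM in replicate 1, 45.7 TPM in replicate 2 and 40.2 TPM in replicate 3. Of the 7, GSC was highest in replicate 2 and GATA6 in replicate 3. MIXL1, an early primitive streak gene, made up much of this sum, with 28.1, 21.9 and 16.8 TPM. EOMES, a mesendoderm regulator downstream of Nodal, had 8.83, 6.33 and 5.05 TPM. A share of cells that express these genes and a level within all cells cannot be told apart in bulk RNA, and whether such cells bear on the values of the members was not tested. TBXT, SOX17 and GATA6 had from 7 to 15 reads per replicate.

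The rest of the pathway was examined on 45 other genes, of which 37 reached 1 TPM in the mean, a level that 67.4% of all protein-coding genes reached. At 10 TPM there were 23, where the share of all protein-coding genes was 45.4%. Of the 10 members, 10 reached 1 TPM and 9 reached 10 TPM. The 8 genes below 1 TPM were 5 ligand genes, both coreceptor genes and ACVR1C.

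**Figure D4:**
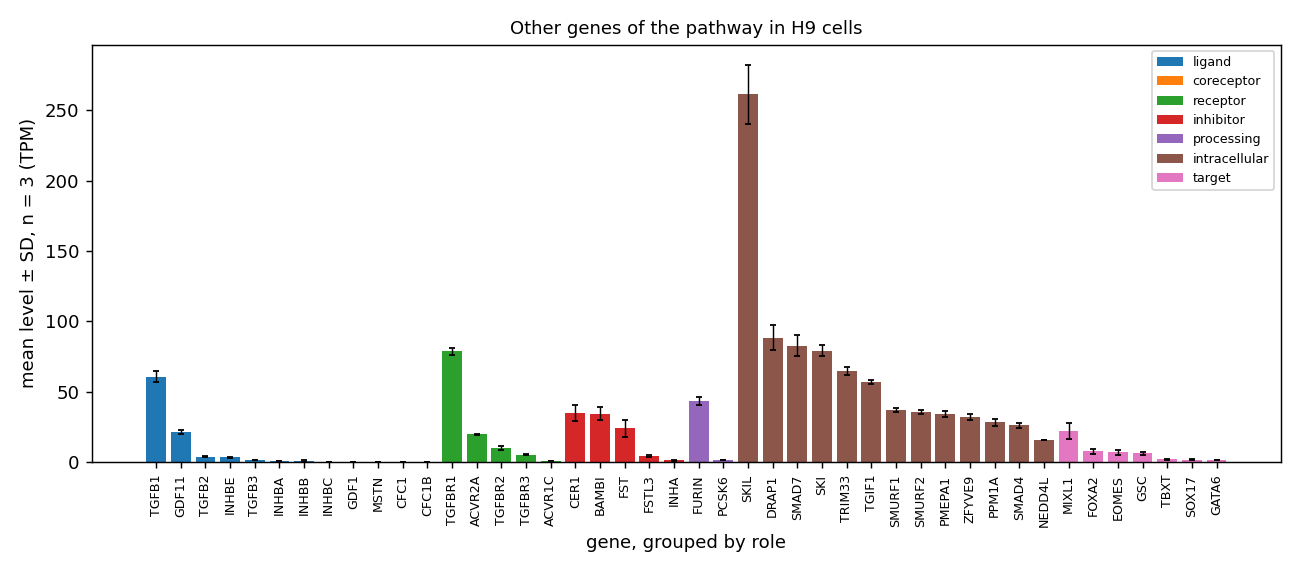
Mean TPM of 44 of the 45 other genes of the pathway (bars, with SD, n = 3), grouped by role. The intracellular genes are all above 10 TPM, led by SKIL at 261 TPM, while CFC1, CFC1B, GDF1 and MSTN are at 0.

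Among the ligands, the subunit genes of activin A and activin B were low. INHBA, the subunit of activin A, had 16 reads in each replicate and 0.750 ± 0.116 TPM (SD, n = 3), and INHBB, the subunit of activin B, had 8, 1 and 6 reads and 0.635 ± 0.464 TPM. The related subunit gene INHBE was higher, with 21, 28 and 26 reads and 3.18 ± 0.611 TPM (SD, n = 3), and INHBC had 1, 0 and 2 reads. TGFB1 was the highest of the 10 other ligands, at 60.7 ± 3.79 TPM (SD, n = 3), followed by GDF11 at 21.4 ± 1.58 TPM. GDF1 and MSTN had 0 reads in all replicates. A count of 0 allows up to 3 reads, or 0.524 TPM for GDF1 in the shallowest replicate and 0.479 TPM for MSTN, and these limits cover counting error only. All of the exon length of GDF1 is shared with other genes on its strand, and what the counting did with shared reads was not tested.

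CFC1 and CFC1B, the other EGF-CFC coreceptor genes, had 0 reads, which allows up to 0.808 and 0.810 TPM. They are near-identical copies of each other, so their counts are uncertain.

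Among the other inhibitors, CER1, a secreted inhibitor of Nodal, had 34.7 ± 5.885 TPM (SD, n = 3). FST, which encodes the activin-binding protein follistatin, had 19.0, 21.7 and 30.8 TPM, highest in replicate 3. BAMBI, a receptor-like membrane protein without a kinase, had 34.4 ± 4.42 TPM (SD, n = 3). FURIN, a protease that processes ligands of this family, had 43.2 ± 2.82 TPM (SD, n = 3), and PCSK6, another, had 1.59 ± 0.102 TPM. The exons of PCSK6 cover 21740 bases and its canonical transcript 4272, where FURIN has 4960 and 4247, so the gap between them depends on the length.

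All 13 intracellular partners and regulators were above 10 TPM, a level that 45.4% of all protein-coding genes reached. Their summed level was 842 ± 32.0 TPM (SD, n = 3). SKIL, a repressor of SMAD complexes that is itself induced by the pathway, had 261 ± 21.2 TPM (SD, n = 3). The related SKI had 79.2 ± 3.96 TPM, and SMAD7, the inhibitory SMAD, had 82.6 ± 7.41 TPM. DRAP1, which restrains FOXH1, had 88.4 ± 9.08 TPM (SD, n = 3), and PMEPA1, a membrane protein that sequesters SMADs, had 34.1 ± 2.35 TPM. The exons of DRAP1 cover 1722 bases and its canonical transcript 822, so its level depends on the length.

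Among the target genes of mesendoderm, MIXL1 had a mean of 22.3 ± 5.66 TPM (SD, n = 3). GSC, FOXA2 and EOMES had means of 6.21, 7.54 and 6.74 TPM, and TBXT, SOX17 and GATA6 between 1.47 and 1.75 TPM. NANOG, a pluripotency factor that SMAD2 and SMAD3 act on in these cells, had 275 ± 24.7 TPM (SD, n = 3). NANOG has processed pseudogenes, so its count is uncertain too.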

How the data were processed

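Total RNA of 3 replicates of untreated H9 cells was depleted of ribosomal RNA and sequenced. The authors trimmed the reads with Trim Galore (0.4.4), aligned them to GRCh38 with TopHat2 (2.1.1) and took abundances from Cufflinks (2.2.1), which are not used here. The deposited counts are raw reads for each Ensembl gene. Which tool and annotation produced them, and whether strand was used, is not given in the sources used here.

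Of 58051 identifiers, 56948 matched GENCODE release 44 on the same build. TPM was counts divided by the union of exons, scaled over matched genes, and averaged over replicates. Shared sequence was searched in all GENCODE transcripts as stretches of 50 bases on both strands. Genes named were the 10 members, 45 other pathway genes, the markers, and copies or overlapping genes of members. The members and lists were chosen with earlier results of these data known. The computation of TPM was tested on simulated counts. Totals of 10390984, 12024802 and 8655155 reads limit precision for LEFTY2, with 43 to 46 reads. An overlap of LEFTY1, the values that rest on it, and 1 pathway gene are not reported here. No test between groups was possible. edgeR (4.0.16) gave TMM factors and filterByExpr, and DESeq2 (1.42.0) gave size factors, for the alternatives. R 4.3.3, Python 3.11.15 and Biopython 1.88 were used.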

Additional observations from a re-analysis of the deposited data

How the results depend on the processing

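A filter on low counts raised all 10 levels by nearly the same factor, 1.025, and none by more than its SD. Rescaling by TMM or DESeq2 factors moved none by more than its SD either. These factors were centred on their geometric mean over the replicates, so a mean over replicates can hardly move under them. A ratio within a replicate cannot change at all, so the rescaling decides nothing. With 3 replicates, the median or leaving out 1 replicate cannot move a mean by its SD, so that measure decides nothing there. The levels changed by a factor between 0.919 and 1.04 with the median, and between 0.906 and 1.07 without 1 replicate. Leaving out mitochondrial genes raised all 10 levels by nearly the same factor, between 1.041 and 1.043. This was more than the SD for 4 of them, whose SD was small beside their level. Gene length mattered most. With canonical or longest transcripts, the log2 ratio of both LEFTY genes to NODAL was -0.77, of TDGF1 to NODAL 3.02, of ACVR1B to ACVR2B -1.66 and of SMAD2 to SMAD3 -0.90. With the shorter SMAD2 transcript beside canonical ones, the first 3 were again -0.77, 3.02 and -1.66, while SMAD2 to SMAD3 was 0.615 and FOXH1 to SMAD2 0.84. With exon bases shared with another gene on either strand left out of the length and all reads kept, NODAL to GDF3 was -0.12, TDGF1 to NODAL 2.20 and FOXH1 to SMAD2 3.15. Ratios of counts, which leave length out and are not ratios of levels, were -1.05 for both LEFTY genes to NODAL, 0.045 for NODAL to GDF3, 2.95 for TDGF1 to NODAL, -3.03 for ACVR1B to ACVR2B, 1.52 for SMAD2 to SMAD3 and -1.74 for FOXH1 to SMAD2. These alternatives differ from the reported values by construction in the length alone. Log2 ratios of TPM + 1 stayed within the SD. At a threshold of 10 TPM, 23 other pathway genes remained in place of 37. Without 1 replicate, the 8 members of the high class stayed 8, and LEFTY1 to LEFTY2 lay between 2.18 and 2.45. No paired analysis was possible because there is 1 condition.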

Other observations

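The coefficient of variation of TPM over the replicates was 28.5% for EOMES, 25.4% for MIXL1 and 25.9% for FST, which is 2.30, 2.78 and 3.36 times what counting alone would give. The median of that factor was 1.34 over protein-coding genes with at least 100 reads in each replicate, and among other pathway genes it was 6.05 for SKIL, 2.63 for SMAD7, 2.54 for PPM1A and 2.44 for SMAD4. The factor rises with the number of reads, and the coefficient of variation of SKIL, with 4272 to 6661 reads, was 8.10%. EOMES and MIXL1 were lowest in replicate 3 and FST was highest there. These genes were singled out from the pathway list after their values were seen, and the spread was not tested.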
